A study of Caenorhabditis elegans and Caenorhabditis briggsae
Caenorhabditis elegans with 146 samples.

Results

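The comparison described here sets *C*. *elegans* L3 larvae fed bacteria that express double-stranded RNA against *dpy-27* beside L3 larvae fed bacteria with the empty vector. Its members are 8 of the 146 samples of the series (76 have a column in the FPKM table used here), chosen by their labels: 4 mRNA-seq libraries named DPY27 RNAi L3 and 4 named Vector RNAi L3, here called *dpy-27* RNAi and control RNAi. All 8 libraries come from N2, the wild type strain, which is XX and hermaphrodite. Synchronized L1 larvae were put on the plates, which carried ampicillin, tetracycline and IPTG to induce the RNA in the bacteria, and whole worms were collected after 24 hours. Exposure to the RNAi thus began in the first larval stage, after embryogenesis, when dosage compensation is known to be set up. Of the other groups of the series, 2 comparisons are used beside this one. One is CB428, that is *dpy-21(e428)*, against N2 L3 larvae of a second collection (4 libraries each, no RNAi plates). The other is *dpy-27* RNAi against vector RNAi in mixed embryos, collected by bleaching RNAi-fed gravid N2 mothers (4 libraries against 6). The labels do not say whether replicates came from separate cultures, and each library pools several collections of worms according to the methods, so p-values measure the spread between these samples.

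DPY-27 is an SMC-family subunit of the dosage compensation complex (DCC), a condensin that binds along both X chromosomes of hermaphrodites and lowers their transcription, so that XX hermaphrodites and XO males produce similar amounts of X-linked mRNA. The condensin core holds DPY-27, MIX-1, DPY-26, DPY-28 and CAPG-1, and SDC-1, SDC-2, SDC-3, DPY-30 and DPY-21 join it on the X. DPY-21 acts on histone H4 lysine methylation on the X. When the complex fails in hermaphrodites, X-linked genes are known to be overexpressed, and larvae that survive are short and fat (the Dumpy phenotype that gave the genes their name).

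The values are FPKM, which correct read numbers for transcript length and for sequencing depth, and were divided here by a library factor between 0.95 and 1.08 (the median of ratios to the mean library), and "scaled FPKM" means this value. Genes with a mean above 1 FPKM were tested, 12566 in all, of which 1920 are on the X. Between 15001 and 17039 genes had a value above 0 in a library. The steps between the lowest values show the depth of the libraries relative to each other. Both libraries of replicate 1 were 4.30 and 4.81 times as deep as the shallowest, control RNAi replicate 4. The other 5 libraries were 1.35 to 1.49 times as deep, so depth moved mainly with the replicate number. It was not free of the RNAi: for replicates 1, 3 and 4 the RNAi library was deeper than the control of the same number, most of all for replicate 4 (1.35 times). For every replicate number, more genes had a value above 0 in the RNAi library than in the control (15669 against 15001 for replicate 4). Rank correlations between libraries ran from 0.903 to 0.975.

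The targeted gene was examined first. Scaled *dpy-27* mRNA was 25.4, 18.7, 17.7 and 19.5 in control RNAi replicates 1 to 4 and 106, 15.4, 16.5 and 19.5 in *dpy-27* RNAi replicates 1 to 4. The transcript was therefore not lower in the RNAi libraries as a group: replicates 2 and 3 lay below every control, replicate 4 lay within the controls, and the library labelled *dpy-27* RNAi replicate 1 lay far above them. The fitted log2 difference was 0.42 (SE 0.57, limma adjusted p = 0.819). Without that library it was -0.24 (adjusted p = 0.606). The level of the targeted transcript therefore does not check the labels, and DPY-27 protein was not analysed here.

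Genes on the X were higher as a chromosome in all *dpy-27* RNAi libraries. The median log2 difference of X genes was 0.39 (quartiles 0.18 and 0.64), against -0.04 for autosomal genes (quartiles -0.22 and 0.15), and each autosome had a median between -0.05 and -0.03. The X shift, the X median after subtracting the autosomal median, was 0.43, that is 1.35-fold. Taken pair by pair of equal replicate number it was 0.42, 0.40, 0.48 and 0.44 (SD 0.036, n = 4 pairs). An X score for each library, the same difference of medians after each gene was centred on its mean over the 8 libraries, was -0.27, -0.22, -0.21 and -0.16 in the controls and 0.15, 0.18, 0.28 and 0.26 in the RNAi libraries. The groups did not overlap, and the exact two-sided permutation test over samples (70 arrangements) gave p = 0.0286, the smallest it can give. Over the 4 pairs alone no p below 0.125 is possible, and that value was reached. Without replicate 1 of either group, and so without the library with high *dpy-27* mRNA, the shift was 0.44.

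**Figure D1:**
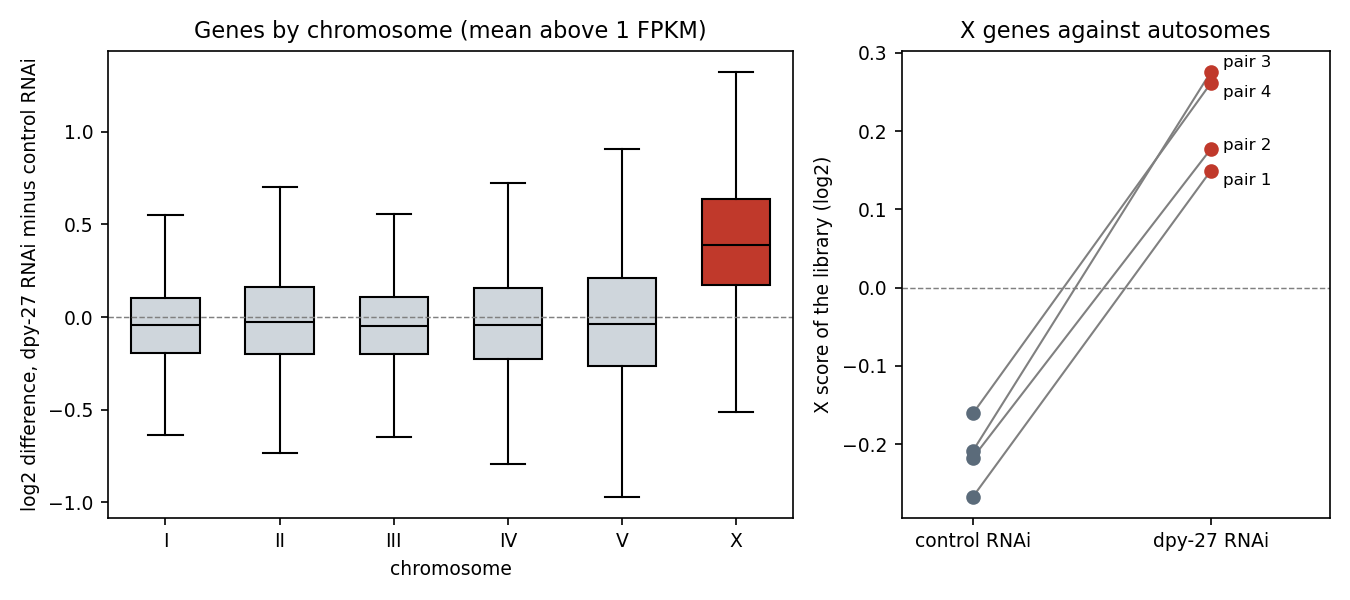
The left panel shows the log2 difference in expression between dpy-27 RNAi and control RNAi for the genes of each chromosome (box, quartiles; line, median; whiskers, the last gene within 1.5 times the box height), and the right panel the X score of each library with lines joining libraries of equal replicate number. The X median (0.39) lies above the upper quartile of each autosome, and the RNAi scores, from 0.15 to 0.28, lie above all control scores.

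The shift was spread over the chromosome and not carried by a few genes. Of the X genes tested, 86.8% had a positive difference, against 43.1% of autosomal genes. In all 4 pairs the RNAi library was higher for 991 X genes (51.6%) and 959 autosomal genes (9.01%), and lower in all 4 pairs for 36 X genes (1.88%) and 1922 autosomal genes (18.1%). Divided by level at 6.88 and 24.3 scaled FPKM, the X shift was 0.39 for low, 0.44 for middle and 0.45 for high levels. The RNAi and control values did not overlap, with the RNAi libraries higher, for 405 X genes (21.1%) and 161 autosomal genes (1.51%), and with the RNAi libraries lower for 6 X genes (0.312%) and 459 autosomal genes (4.31%).

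Single genes passed the test far less often than the chromosome moved. With limma (Benjamini-Hochberg adjustment over all genes, threshold 0.05) and no pairing, 4 of 12566 genes were called, 0.0318%. On the X, *sams-1* and *cyp-13B1* rose (0.104% of X genes). On autosomes *ins-20*, which was listed at 0 in every control, rose and *hsp-16.2* fell (0.00939% each). Deviations of same-numbered libraries from their group means correlated at 0.64, 0.15, 0.21 and 0.36 for numbers 1 to 4. For number 3 another number gave a slightly higher value (0.23). The numbers were taken to pair the libraries, which the labels do not state. With the replicate number as a block limma called 230 genes, 1.83%. Of these, 91 rose on the X (4.74% of X genes), 2 fell on the X (0.104%), 49 rose on autosomes (0.46%) and 88 fell on autosomes (0.827%). With libraries scaled on autosomal genes alone, which moved the median of all genes to 0.05, the paired counts were 144 and 2 on the X and 73 and 86 on autosomes. In what follows "rose" and "fell" are used for genes called in the paired test, and the 4 genes above are the only ones also called without pairing. All 230 moved the same way in each of the 4 pairs, and their adjusted p were 0.0234 or higher, close to the threshold: with any single pair left out, between 0 and 5 genes were called.

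Both X-linked genes called without pairing encode metabolic enzymes. The gene *sams-1* encodes S-adenosylmethionine synthetase, which makes the methyl donor used for phosphatidylcholine and for histone methylation. Its scaled FPKM was 496, 403, 479 and 456 in the controls and 1168, 1002, 1003 and 886 in the RNAi libraries, so that every RNAi library had more than any control. The log2 difference was 1.14 (SE 0.13, adjusted p = 0.0357 unpaired and 0.0298 paired), a fold of 2.21. The cytochrome P450 gene *cyp-13B1* was lower in level and tighter among the controls, with 5.57, 5.33, 5.02 and 4.83 scaled FPKM against 14.5, 19.1, 20.0 and 13.9. Its log2 difference was 1.67 (SE 0.16, adjusted p = 0.0354 unpaired and 0.0298 paired). A second X-linked P450, *daf-9*, which makes the steroid hormones that let larvae bypass dauer arrest, rose as well (log2 0.90, adjusted p = 0.381 unpaired and 0.0484 paired), with overlapping groups.

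X-linked regulators of cell fate and of epidermal development rose as well. The gene *psa-3* encodes a Meis-type homeodomain protein that acts in an asymmetric division of the tail epidermis under Wnt control. It measured 4.76, 3.95, 4.02 and 3.81 scaled FPKM in the controls and 11.6, 9.50, 10.8 and 16 in the RNAi libraries (log2 1.49, SE 0.18, adjusted p = 0.0566 unpaired and 0.0322 paired), and the groups lay well apart. The nuclear receptor gene *nhr-25*, needed for epidermal cell shape and molting, measured 14.6, 18, 14.9 and 23.3 against 29.4, 30.1, 27 and 38.2 (log2 0.83, adjusted p = 0.17 unpaired and 0.0391 paired). Here too the lowest RNAi library was above the highest control. The heterochronic gene *lin-14*, which specifies early larval fates, rose by 0.65 on the log2 scale (adjusted p = 0.338 unpaired and 0.0415 paired), but its groups overlapped because the controls themselves ran from 25.4 to 44.6. The aristaless-type homeobox gene *alr-1* (0.78), the homeobox gene listed as F28H6.2 (1.23) and the beta-catenin gene *bar-1* (0.65) rose with groups that did not overlap.

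Other X-linked genes that rose act in signalling, at the cell surface or in the extracellular matrix. The FGF receptor gene *egl-15* measured 11.8, 10.7, 12.3 and 12.7 scaled FPKM in the controls and 19.6, 23.1, 20.4 and 31.3 in the RNAi libraries (log2 0.96, adjusted p = 0.112 unpaired and 0.0426 paired). The kinase gene *sgk-1*, which acts with the insulin and TOR pathways, rose by 0.96, again without overlap. Of the secreted proteases, *nas-38*, an astacin, measured 5.92, 4.85, 5.04 and 17.6 against 19.1, 24, 40.9 and 73.8. Its log2 difference of 2.25 was large (SE 0.52, adjusted p = 0.174 unpaired and 0.0298 paired), and control replicate 4 lay close below the lowest RNAi library. The ADAMTS-type protease gene *adt-1* measured 6.96, 5.74, 3.26 and 5.42 against 19.3, 15.6, 8.24 and 21 (log2 1.53, adjusted p = 0.17 unpaired and 0.0298 paired). Among genes with a public name, the 8 largest X rises without overlap, at group means of at least 5 FPKM, also held the ligand-gated channel gene *lgc-21* (1.24), the stomatin gene *sto-1* (1.01) and the claudin-like gene *clc-1* (1.0). Several genes known only by a sequence name rose further, among them ZK402.2 (2.26) and C45B2.2, both named after their values were seen. C45B2.2 was abundant, with 421, 150.2, 321 and 479 scaled FPKM in the controls and 1253, 908, 2437 and 1169 in the RNAi libraries (log2 2.10, adjusted p = 0.155 unpaired and 0.0422 paired), and its groups did not overlap. The cuticle collagen gene *col-182* had the largest log2 difference of the X calls (2.39, adjusted p = 0.212 unpaired and 0.0298 paired), but control replicate 1, at 29.7, was above *dpy-27* RNAi replicate 3, at 22.8.

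The 2 X-linked genes that fell, named after their values were seen, were C18A11.4 and K10C2.3. C18A11.4 measured 10.3, 16.4, 11.8 and 5.85 scaled FPKM in the controls and 2.63, 3.34, 5.62 and 1.10 in the RNAi libraries (log2 -1.89, adjusted p = 0.184 unpaired and 0.0391 paired). For K10C2.3 the values were 62.2, 36.4, 38.3 and 35.2 and 37.3, 15.8, 18.6 and 10.7, and *dpy-27* RNAi replicate 1 overlapped the controls.

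**Figure D2:**
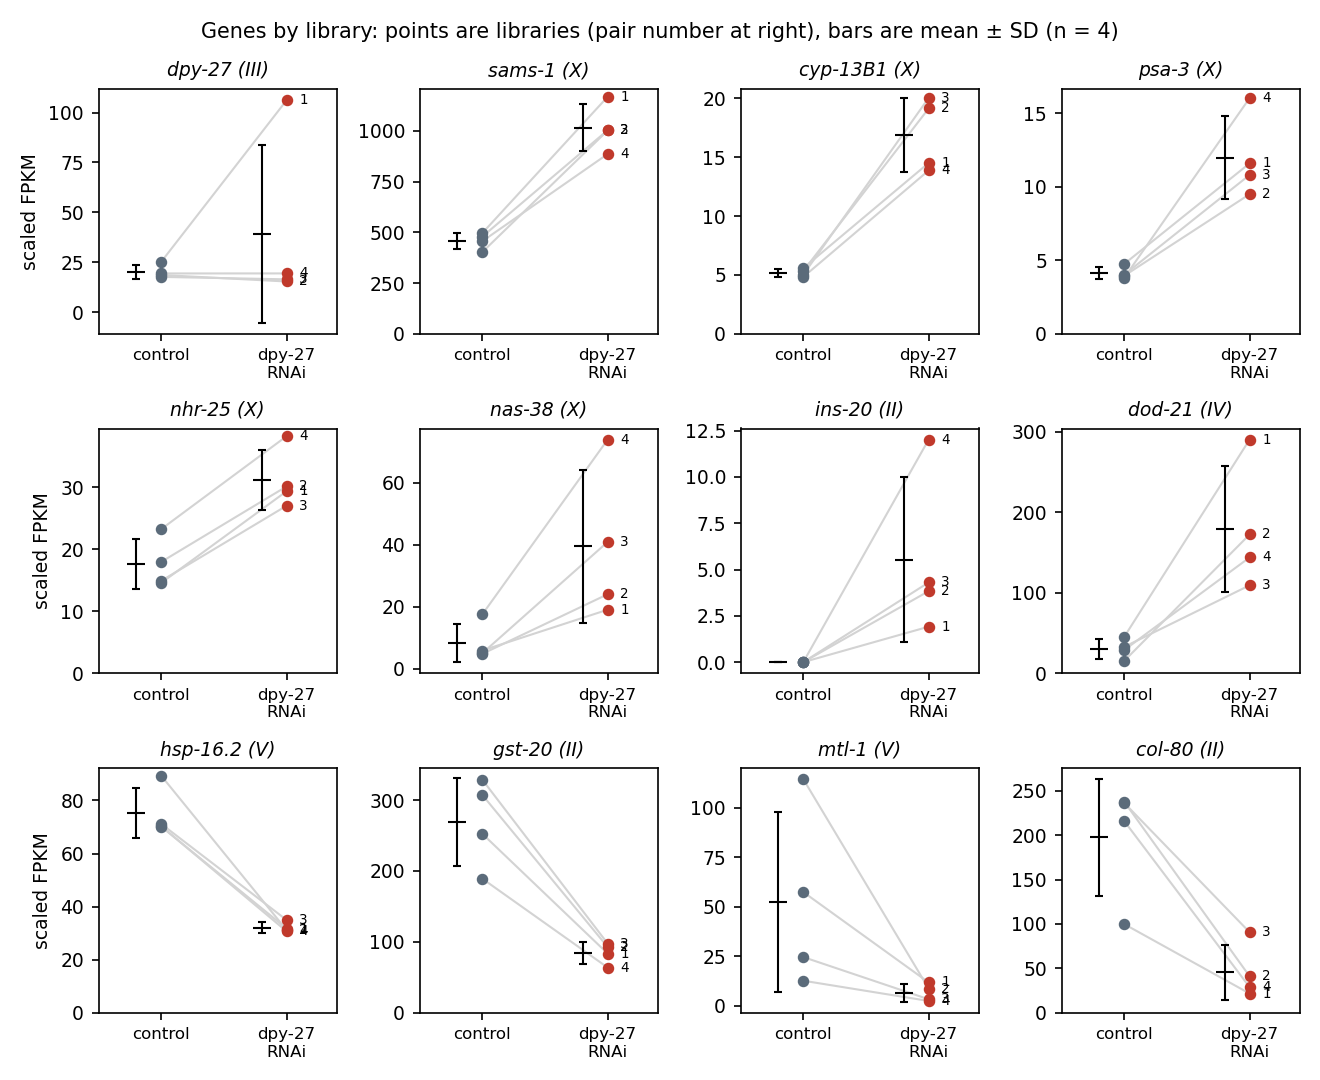
Scaled FPKM of 12 genes (chromosome in parentheses) in the 4 control RNAi libraries (grey) and the 4 dpy-27 RNAi libraries (red), with lines joining pairs, pair numbers beside the red points, and mean ± SD at the left of each group (n = 4). The groups overlap only for dpy-27, whose RNAi replicate 1 stands at 106 while the other 3 RNAi libraries lie between 15.4 and 19.5.

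Read by gene family, the X-linked members of several families had medians between 0.20 and 0.52, against the X median of 0.39, and few members passed the paired test. The median over the X-linked members was 0.45 for 19 nuclear hormone receptors (1 called, *nhr-25*), 0.50 for 18 homeobox factors (2 called, *alr-1* and F28H6.2, with *psa-3* not in the list), 0.32 for 32 neuropeptide genes (0 called) and 0.20 for 15 potassium channel genes (0 called). Of the neuropeptide genes 31 had a positive difference. Among 4 X-linked heterochronic genes the median was 0.46, with *lin-14* called and *hbl-1* at 0.59 (adjusted p = 0.378 unpaired and 0.0731 paired). The median was 0.52 for 4 X-linked genes of the TGF-beta pathway that sets body size and 0.41 for 6 genes of vulval EGF-Ras and Notch signalling, with 0 called in each. The background for these counts is the 4.74% of all X genes that rose, and the same families on autosomes had medians between -0.12 and 0.08, with 0 members called.

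X-linked members of further families had medians of 0.58 (6 basic helix-loop-helix factors, 5 above 0), 0.53 (15 antimicrobial peptide genes, 12 above 0), 0.34 (9 transthyretin-like genes, all 9 above 0) and 0.26 (18 neurotransmitter-gated channels, 13 above 0). The single call among these 4 families was *lgc-21*, where 4.74% of all X genes rose. Of 3 X-linked chitin genes, C06G1.2 was called, with 10.1, 5.29, 2.93 and 3.22 scaled FPKM in the controls and 17.9, 13.3, 5.37 and 10.9 in the RNAi libraries (log2 1.18, adjusted p = 0.353 unpaired and 0.0472 paired).

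Ribosomal protein genes gave an example within a single complex. Cytosolic ribosomal proteins are needed in equal amounts, and nearly all of their genes are autosomal. The fitted differences of the 2 X-linked members were positive. The gene *rpl-11.2* measured 3497, 2819.9, 3598 and 3732 scaled FPKM in the controls and 5291, 4606, 5204 and 5479 in the RNAi libraries (log2 0.60, adjusted p = 0.16 unpaired and 0.0473 paired). For *rpl-25.1* the log2 difference of 0.37 did not pass (adjusted p = 0.207 paired), and in pair 4 it was -0.05. The 76 autosomal members had a median of -0.16, with 1 of 76 above 0 and 0 called. The medians of the autosomal members by pair were -0.06, 0.04, -0.13 and -0.52, so that pair 4 lay lowest and pair 2 did not share the sign.

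Other X-linked families had medians below the X median, among them glutathione S-transferases (-0.11) and vacuolar ATPase genes (-0.12), with 3 members each. The 22 X-linked nematode-specific peptide genes had a median of 0.06, with 11 above 0. Of these genes 8 were lower in all 4 pairs, as were 1.88% of all X genes. In the joint fit with mixed embryos, described below, the median of 23 such genes in the larvae was 0.36. The 16 X-linked cuticle collagen (col) genes had a median of 0.21, with 8 above 0, against 86.8% of all X genes. This col median was unstable: by pair it was 0.07, 0.69, 0.35 and -0.10. With single libraries left out it ran from 0.14 to 0.64. In the joint fit with *dpy-21(e428)*, described below, it was 0.67 in the RNAi larvae over 18 members. The 9 X-linked body muscle sarcomere genes had a median of -0.19, with 2 above 0, and the most abundant, the actin gene *act-4*, measured 3025, 2903, 3055 and 3406 against 2564, 2570.1, 2896 and 2837 scaled FPKM (log2 -0.19, adjusted p = 0.536 unpaired and 0.314 paired). The 17 autosomal members had a median of -0.35, and all 17 were below 0. The myosin heavy chain gene *unc-54* measured 1776, 1651, 1586 and 1651 in the controls and 1314, 1207, 1236 and 1188 in the RNAi libraries (log2 -0.43, adjusted p = 0.174 unpaired and 0.0701 paired). The paramyosin gene *unc-15* (-0.38) and the tropomyosin gene *lev-11* (-0.41) likewise had groups that did not overlap. None of these genes passed either test. The summed scaled FPKM of 6 body muscle markers was 4433 to 4729 in the controls and 3505 to 3766 in the RNAi libraries. That sum includes *unc-54* and *unc-15*, so it is not separate from the values above. In whole worms, less muscle and less muscle mRNA per cell cannot be told apart.

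The genes that form the complex, or act with it, were not called in either test. Over the 8 autosomal DCC genes the median log2 difference was 0.06. The SMC gene *mix-1*, which serves in the DCC and in mitotic condensin, measured 13.7, 13.3, 14.5 and 11.5 scaled FPKM in the controls and 15.4, 16.8, 14.6 and 20.2 in the RNAi libraries (log2 0.33, adjusted p = 0.396 unpaired and 0.286 paired). Each RNAi library was above each control for *mix-1*, but the lowest RNAi library and the highest control were nearly equal. The differences were -0.01 for *dpy-26*, 0.23 for *dpy-28*, -0.10 for *capg-1*, -0.02 for *sdc-3*, 0.05 for *dpy-21* and 0.07 for *dpy-30*. The X-linked subunits *sdc-1* and *sdc-2* were at 0.21 and 0.31. The mitotic condensin gene *smc-4*, the closest SMC relative of *dpy-27*, was at 0.21. The H4K20 methyltransferase genes *set-1* and *set-4* were at 0.08 and -0.17. On the X, the glypican gene *lon-2*, a regulator of body length, was at 0.06, with a paired 95% confidence interval from -0.57 to 0.69.

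Sex determination genes gave no called change. The master switch *xol-1*, which is active in XO embryos, lay between 0 and 0.235 scaled FPKM and *her-1*, the male signal, between 0 and 0.879, both below the filter. The X signal element genes *sex-1* (0.58) and *ceh-39* (0.52) and the terminal regulator *tra-1* (-0.37) did not pass. Of the 10 marker classes, sperm and early embryo markers (8 each) were all below the filter, *nspd-1* was at 0 in all libraries, and 8 male markers summed to 1.24 to 6.32 in the controls and 3.9 to 4.8 in the RNAi libraries, with *cwp-1* at 0. The 8 adult or yolk markers summed to 4.15 to 10.6 and 7.27 to 13.7, and the 8 germline markers to 66.8 to 98.7 and 66 to 108.7.

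On autosomes 88 genes fell and 49 rose with scaling over all genes, and 86 and 73 with scaling on autosomal genes alone. FPKM are relative values, so the imbalance depends on the scaling. As background, 0.827% of all autosomal genes fell and 0.46% rose. Several of those that fell belong to stress and detoxification. The small heat shock gene *hsp-16.2*, a chaperone induced by heat and proteotoxic stress, measured 70.1, 89.3, 71.1 and 70.3 scaled FPKM in the controls and 31.7, 31.1, 34.9 and 30.7 in the RNAi libraries. The RNAi values lay close together and under all controls, and the log2 difference was -1.22 (SE 0.12, adjusted p = 0.0354 unpaired and 0.0298 paired). Its relative *hsp-16.41* (-1.13, adjusted p = 0.157 unpaired and 0.0415 paired) and the endoplasmic reticulum chaperone gene *hsp-4* (-1.0, adjusted p = 0.125 unpaired and 0.0391 paired) fell too. These were the 3 called members of 20 autosomal heat shock genes, whose median was -0.38 and of which 2 were above 0. Near-identical small heat shock genes can share reads, so the split of counts between *hsp-16* copies is uncertain.

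Glutathione S-transferases, which conjugate glutathione to electrophiles, had the lowest median of the autosomal families with at least 5 tested members. It was -0.61 over 35 members, with 29 of them at or below 0, 5 called as lower and 0 as higher, where 0.827% of all autosomal genes fell. The medians by pair were -0.37, -0.70, -0.23 and -0.84. The gene *gst-20* had the smallest paired p of all genes: it measured 252, 307, 329 and 189 scaled FPKM in the controls and 83.5, 92.7, 97.7 and 63.8 in the RNAi libraries (log2 -1.66, SE 0.21, adjusted p = 0.0637 unpaired and 0.0234 paired). The fitted level was 3.16-fold lower in the RNAi libraries, and the groups were far apart. For *gst-14* the values were 10.0, 10.6, 19.2 and 11.4 and 2.66, 4.29, 4.81 and 1.88 (log2 -1.91, adjusted p = 0.112 unpaired and 0.0318 paired). The most abundant member, *gst-1*, measured 338, 256, 255 and 233 against 194, 158, 149.7 and 108 (log2 -0.84, adjusted p = 0.175 unpaired and 0.0391 paired), while *gst-10* (-1.27) and *gst-15* (-1.13) fell with overlapping groups.

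Other genes of xenobiotic or metal handling moved with them. The metallothionein gene *mtl-1*, which binds metals and is a target of insulin signalling, measured 57.4, 114, 24.5 and 12.6 scaled FPKM in the controls and 11.7, 8.63, 3.23 and 2.37 in the RNAi libraries. Its fall of 2.81 on the log2 scale (SE 0.74, adjusted p = 0.196 unpaired and 0.0298 paired) left the groups without overlap, although the controls alone ran from 12.6 to 114. The cadmium-responsive gene *cdr-5* (-1.69) and the flavin monooxygenase gene *fmo-2* (-1.83) fell with overlapping groups (paired adjusted p = 0.0448 and 0.045). Of 53 autosomal UDP-glucuronosyltransferases, which attach glucuronic acid to small molecules, 3 fell (*ugt-22*, *ugt-26* and *ugt-31*, between -1.12 and -0.69) and the family's median was -0.12. The X-linked member *ugt-50* rose by 0.59. Of 39 autosomal cytochrome P450 genes 0 were called, with a median of -0.04. Of 91 autosomal C-type lectins, carbohydrate-binding proteins often tied to immunity, 3 fell (*clec-49*, *clec-66* and *clec-146*) and the median was 0.16. The background for the falls in these autosomal families is the 0.827% of all autosomal genes that fell.

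Genes of energy metabolism and transport lay lower as groups without single calls. Over 34 autosomal genes of the mitochondrial respiratory chain the median was -0.23, with 2 above 0 and 0 called. Among them *atp-2*, a subunit of ATP synthase, measured 1987, 2240.0, 2089 and 2027 scaled FPKM in the controls and 1654, 1752, 1801 and 1463 in the RNAi libraries (log2 -0.33, adjusted p = 0.281 unpaired and 0.13 paired). Over 18 autosomal vacuolar ATPase genes, whose proteins acidify lysosomes and the excretory cell, the median was -0.28, the medians by pair were -0.35, -0.29, -0.28 and -0.24, and 0 were called. The subunit gene *vha-11* measured 252, 245, 295 and 264 against 187, 175, 213 and 211 (log2 -0.43, adjusted p = 0.221 unpaired and 0.0692 paired). Summed intestine markers (8 genes) ranged from 2585 to 2970 in the controls and from 2046 to 3005 in the RNAi libraries. The elongase gene *elo-6*, which lengthens fatty acids, fell by 1.13 with overlapping groups (adjusted p = 0.409 unpaired and 0.0422 paired). In the family of transthyretin-like proteins *ttr-2* was the single member called, with 382, 445, 437 and 440.1 scaled FPKM in the controls and 189.9, 197, 311 and 238 in the RNAi libraries, and the median over 37 autosomal members was -0.20. Of all autosomal genes 0.827% fell. The intermediate filament gene *ifc-1* measured 58.6, 70.3, 105 and 135 against 20.3, 25.2, 50.8 and 26 (log2 -1.60, adjusted p = 0.165 unpaired and 0.0392 paired).

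Cuticle collagens, the structural proteins of the exoskeleton, were divided. Over all autosomal genes 0.827% fell and 0.46% rose. Of 87 autosomal col genes 7 fell (*col-80*, *col-93*, *col-146*, *col-147*, *col-158*, *col-160* and *col-162*) and *col-89* rose, with a family median of -0.11. The clearest, *col-80*, measured 99.8, 238, 236 and 216 scaled FPKM in the controls and 21.6, 41, 90.6 and 28.8 in the RNAi libraries (log2 -2.25, adjusted p = 0.157 unpaired and 0.0309 paired). The groups did not overlap, although control replicate 1 and *dpy-27* RNAi replicate 3 came close. The abundant gene *col-93* measured 666, 1196, 1862 and 3145 against 244, 511, 1032 and 975. Its controls alone ran from 666 to 3145, and the fall of 1.30 was called only when the pairs were used (adjusted p = 0.407 unpaired and 0.0337 paired). The same held for *col-160* (-1.30), *col-147* (-1.19), *col-146* (-1.07) and *col-158* (-2.33). Closely related col genes can share reads, so single values within the family are uncertain.

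The F15E11 genes of chromosome V and Y19D10B.7, whose values run nearly in parallel, fell furthest, and are named here after their values were seen. F15E11.13 measured 2161, 867, 215 and 144 scaled FPKM in the controls and 196, 9.53, 4.67 and 1.34 in the RNAi libraries, a log2 difference of -5.52 (SE 1.47, adjusted p = 0.198 unpaired and 0.0298 paired). The controls alone ran from 144 to 2161 and overlapped *dpy-27* RNAi replicate 1, yet each RNAi library was lower than its own control, with log2 differences from -3.46 to -6.64. The other members F15E11.1, F15E11.12, F15E11.14, F15E11.15 and Y19D10B.7 had differences between -6.0 and -4.91 with replicate 1 highest in both groups, and F15E11.1 and F15E11.14 were listed with the same values in 7 of the 8 libraries. Genes with such values may share reads, so they are taken as a single observation.

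Among autosomal rises, *ins-20* was the only one called without pairing. It encodes an insulin-like peptide, and was listed at 0 in all 4 control libraries and at 1.91, 3.83, 4.30 and 12 in the RNAi libraries (adjusted p = 0.0357 unpaired and 0.0309 paired). No fold is given, because a value of 0 in an FPKM table has no floor of its own. The *ins-20* controls all stood at the added 0.1, so their spread was not measured. The gene passed the filter on level only through the RNAi libraries, so its p-values are not taken as support for a change. Of the 25 autosomal insulin-like genes, *ins-33* was called in the other direction, with 228, 168, 166 and 95.3 scaled FPKM in the controls and 102, 68, 68.1 and 25.7 in the RNAi libraries (log2 -1.41, adjusted p = 0.242 unpaired and 0.0309 paired), and the family median was 0.07. The gene *dod-21*, a CUB-domain gene that responds to insulin signalling and to pathogens, measured 45.3, 15.4, 32.7 and 28.9 against 290.1, 172, 109 and 144. Every RNAi library was well above the highest control, and the log2 difference was 2.55 (SE 0.38, adjusted p = 0.0769 unpaired and 0.0309 paired). Its neighbour C32H11.9 carried almost the same values, so the pair of genes may share reads. The tubulin gene *tbb-6* measured 2.07, 1.92, 1.77 and 1.32 against 6.18, 6.86, 4.44 and 9.81 (log2 1.85, adjusted p = 0.0769 unpaired and 0.0448 paired). The largest rise of a gene without a public name was that of Y39B6A.24 (3.14, adjusted p = 0.0769 unpaired and 0.0298 paired), among autosomal calls without overlap and with a mean of at least 5 FPKM. The astacin gene *nas-23* (1.35) and *valv-1* (0.74) rose without overlap as well. The chemoreceptor gene *srr-4* rose by 0.70. It was the 1 called member of 33 autosomal chemoreceptor genes tested, where 0.46% of all autosomal genes rose.

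**Figure D3:**
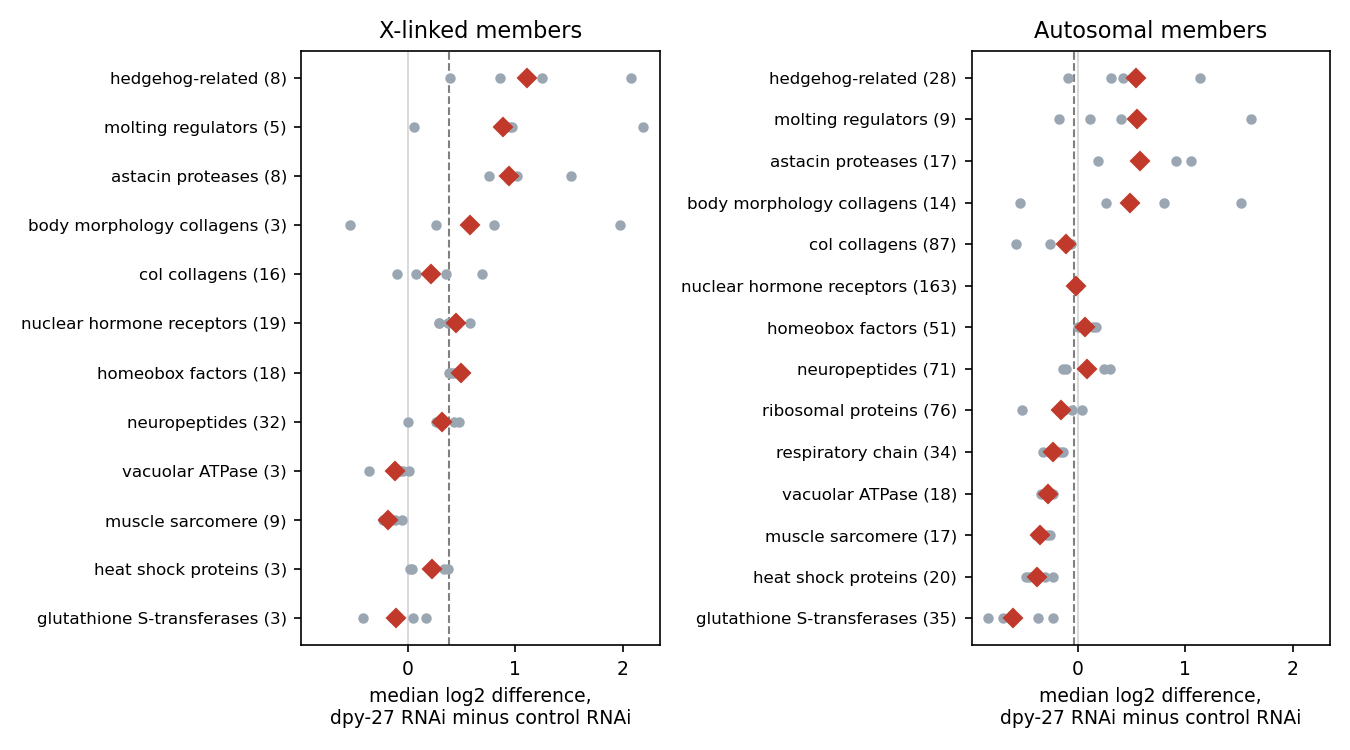
Median log2 difference of gene families on the X (left) and on autosomes (right), with the number of tested members in parentheses: red diamonds are medians of the fitted differences, grey points the medians within each of the 4 pairs, and the dashed line the median of all X genes (0.39) or all autosomal genes (-0.04). Hedgehog-related genes, molting regulators, astacins and body morphology collagens lie to the right on both sides but with wide scatter between pairs.

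Some gene families of the molting cycle were higher on both the X and the autosomes, unevenly between pairs. Autosomal col genes were not: their median was -0.11 over 87 members, with 31 lower and 17 higher in all 4 pairs. Each larval stage ends with a molt, in which the epidermis makes a new cuticle and sheds the old one, and mRNAs of collagens, hedgehog-related proteins and astacin proteases are known to rise and fall with it. The median log2 difference was 1.11 for 8 X-linked and 0.54 for 28 autosomal hedgehog-related genes, 0.89 for 5 and 0.55 for 9 molting regulators, 0.94 for 8 and 0.58 for 17 astacins, and 0.58 for 3 and 0.48 for 14 body morphology collagens (the dpy, sqt and rol genes). The medians by pair of the autosomal molting regulators were 0.11, 0.40, -0.17 and 1.61, those of the autosomal body morphology collagens 0.26, 0.80, -0.54 and 1.51, and those of the autosomal hedgehog-related genes 0.31, 0.42, -0.09 and 1.14. In these 3 autosomal lists pair 4 was the highest and pair 3 the lowest and below 0. The autosomal astacins differed, with pair medians of 0.18, 0.91, 0.58 and 1.06, and on the X the hedgehog-related genes (0.86, 1.25, 0.39 and 2.08) and molting regulators (0.96, 0.97, 0.06 and 2.19) were above 0 in all pairs. Single libraries moved these medians: without control RNAi replicate 4 they were 0.16 for autosomal molting regulators, 0.23 for autosomal and -0.05 for X-linked body morphology collagens and 0.26 for autosomal hedgehog-related genes. Without *dpy-27* RNAi replicate 3 they were 0.83, 0.86, 0.64 and 0.68, and without control RNAi replicate 1 they were 0.86, 0.82, 0.89 and 0.58, in the same order.

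Single members of these families passed the paired test, in which 4.74% of all X genes and 0.46% of all autosomal genes rose. On the X, 2 of 5 molting regulators (*nhr-25* and *nekl-3*), 2 of 8 astacins (*nas-11* and *nas-38*) and 1 of 8 hedgehog-related genes (*grd-14*) rose. On autosomes 2 of 17 astacins (*nas-7* and *nas-23*) rose, with 0 of 28 hedgehog-related genes, 0 of 9 molting regulators and 0 of 14 body morphology collagens called. The kinase gene *nekl-3*, needed to complete the molt, measured 18.5, 15.2, 17 and 15.3 scaled FPKM in the controls and 28.2, 29.4, 33.6 and 31.5 in the RNAi libraries (log2 0.89, adjusted p = 0.0758 unpaired and 0.0391 paired), and it was among the few with little spread. By contrast *lin-42*, the Period homolog that times the molts, measured 416, 249.6, 262 and 92.5 against 507, 390.3, 225 and 387 (log2 0.69, adjusted p = 0.33 paired). The X-linked molting gene *mlt-9* measured 109.9, 53.3, 43 and 14.5 against 213, 128, 44.9 and 92.7 (log2 1.24, adjusted p = 0.151 paired). For both genes the controls alone spread as widely as the groups differed. The collagen genes *rol-6* (0.80), *sqt-3* (0.73) and *dpy-13* (0.47), and the X-linked astacin *nas-37* (1.23), showed the same pattern, with control replicate 1 high and control replicate 4 low or lowest. One hedgehog-related gene, *grd-3*, went the other way (log2 -1.26, adjusted p = 0.172 unpaired and 0.0692 paired). The patched-related gene *ptr-16* rose by 1.03. Summed levels of 8 epidermis markers ran from 5050 to 9578 in the controls and from 4296 to 8111 in the RNAi libraries. The median log2 difference over the same 8 markers was 0.41, so sum and median did not point the same way. Whether the libraries were collected at different points of the molting cycle, and what part that has in these values, was not tested.

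**Figure D4:**
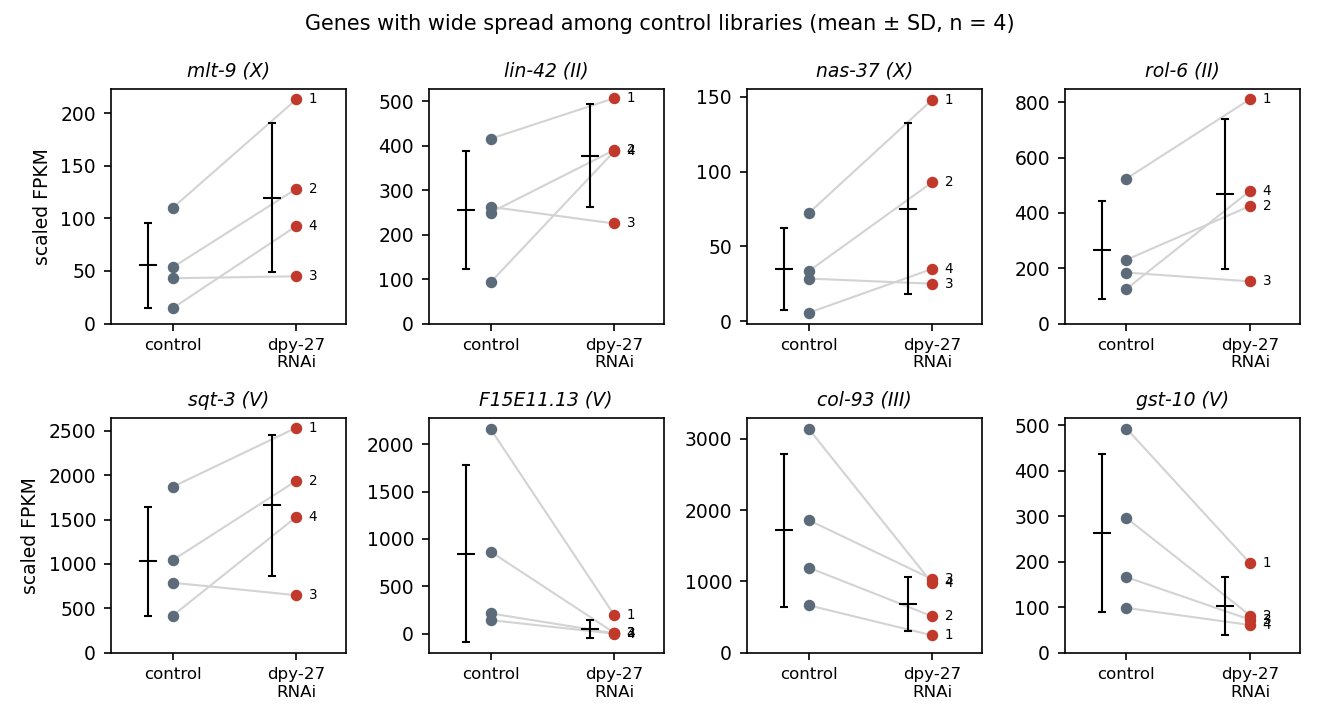
Scaled FPKM of 8 genes with a wide spread among the control libraries, drawn as points per library (grey, control RNAi; red, dpy-27 RNAi) with lines joining pairs, pair numbers beside the red points and mean ± SD at the left (n = 4). For mlt-9, lin-42, nas-37, rol-6 and sqt-3 the groups overlap and pair 3 is flat or lower, whereas for F15E11.13, col-93 and gst-10 all 4 lines fall although the groups overlap.

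The larvae on *dpy-27* RNAi were next set beside larvae with a heritable loss of another subunit. In the joint fit with *dpy-21(e428)* L3 larvae, the X shift was 0.43 for *dpy-27* RNAi and 0.66 for *dpy-21(e428)* against N2 (exact two-sided permutation test over samples, p = 0.0286, the smallest possible). The difference between the shifts was not tested. Single genes were compared by a limma interaction, the *dpy-27* RNAi difference minus the *dpy-21(e428)* difference: 17 of 12500 genes were called (0.136%), 16 of them autosomal, and 870 had an unadjusted p under 0.05. The 3 with the smallest p, C25F9.14, M04C3.1 and C25F9.11, all on chromosome V, lay at means of 0.0256, 0.152 and 0.0833 scaled FPKM in *dpy-21(e428)* larvae, against 26.4, 7.62 and 51 in *dpy-27* RNAi larvae and 18.9, 7.06 and 43.8 in their controls. In the N2 libraries of the second collection they were at 12.9, 8.76 and 25.3, so the low level was seen in CB428 among these 4 groups. The single X-linked gene among the 17 was *csq-1*, the calsequestrin of muscle, with a log2 difference of -0.01 under *dpy-27* RNAi and 0.77 in *dpy-21(e428)* (interaction -0.78, SE 0.13, adjusted p = 0.0318).

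Some of the autosomal genes described above differed from *dpy-21(e428)* and others did not pass. In this joint fit *dod-21* had differences of 2.54 under *dpy-27* RNAi and 5.73 in *dpy-21(e428)* (interaction -3.19, adjusted p = 0.0411), and C32H11.9 likewise. The lysozyme gene *lys-7* had differences of -0.74 and 1.63 (interaction -2.36, adjusted p = 0.0032). For *mtl-1* the differences were -2.82 and 0.19 and for *gst-20* -1.67 and -0.41, and neither interaction passed (adjusted p = 0.447 and 0.653). The medians of autosomal families were -0.59 under *dpy-27* RNAi and -0.18 in *dpy-21(e428)* for glutathione S-transferases, -0.36 and -0.11 for muscle sarcomere genes, -0.39 and -0.24 for heat shock genes, 0.53 and -0.24 for hedgehog-related genes and 0.54 and -0.38 for molting regulators, with 0 members called for the interaction in each.

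The same RNAi given to mothers was measured in their embryos. The X shift in the joint fit was 0.42 in L3 larvae and 0.56 in mixed embryos, where the exact two-sided permutation test over samples (210 arrangements) gave p = 0.176. The limma interaction called 0 of 13254 genes, with 29 X and 135 autosomal genes at an unadjusted p under 0.05 and a smallest adjusted p of 0.9999, so a difference between stages was not detectable for any gene here. The smallest p belonged to B0205.14 (interaction 5.63), C12D5.5 (-2.47) and C40A11.7 (2.63). The autosomal glutathione S-transferases had a median of -0.60 in larvae and 0.27 in embryos, and the body muscle genes -0.37 and 0.53.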

How the data were processed

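Whole-worm poly(A) RNA was sequenced as stranded single-end libraries. Per the methods the authors aligned reads with TopHat to WS220 and deposited FPKM from Cufflinks (2.2.0 in the submitters' processing notes, which also name CASAVA 1.8 and HTSeq 0.6.0). The deposited table holds 20411 genes, of which 19899 were placed on a chromosome by locus tag and 5 by symbol, and 16 value columns that matched no sample were not used. Here FPKM were scaled by the median of ratios, 0.1 was added before log2, and genes with a mean of group means above 1 FPKM were tested with limma 3.58.1 (lmFit, eBayes with trend, R 4.3.3), p-values being adjusted by Benjamini-Hochberg over all tested genes (threshold 0.05). Fold changes are on the log2(value + 0.1) scale, which understates changes of low genes. Total read counts are not in the table, so only relative depth is given and no count test was made. The model was tested on simulated data.

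Groups came from the sample labels. The fit without a block follows the study's design, and the fit with the replicate number as a block was the alternative. Deviations of same-numbered libraries from their group means correlated at 0.64, 0.15, 0.21 and 0.36 for numbers 1 to 4, so the numbers were taken to pair the libraries, although for number 3 another number gave a slightly higher value (0.23).

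The members, the 49 gene lists and the markers of 10 classes were chosen with earlier results of these data known. Named genes were the targeted gene and genes of the complex, among genes with a public name the largest changes without overlapping groups at a mean of at least 5 FPKM in the higher group (taken here from the paired calls), up to 4 members of a list by smallest p and its most abundant member, and the 3 genes of smallest p for each interaction. Other genes were chosen after their values were seen. Alternatives were the pseudocount, the filter, the scaling, robust eBayes, the block and leaving out libraries. Gene sequences were not used here.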

Additional observations from a re-analysis of the deposited data

Results flagged for a closer look

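Among 222 groups of 4 libraries examined for the genes named in the text, 20 held a library far from the other 3 by Dixon's criterion, where chance gives about 1 in 20. *dpy-27* RNAi replicate 1 was such a library for *dpy-27* (106 scaled FPKM, the others at most 19.5), *lys-7* (267, the others 136 to 138), *gst-10* (196) and the chromosome V genes F15E11.1 and F15E11.14 (271 each), F15E11.12 (21.1), F15E11.13 (196), F15E11.15 (30.3) and Y19D10B.7 (178). The other RNAi outliers were *gst-15* (7.91) and *ugt-50* (29.1), both replicate 3, and *col-162* (80.6), replicate 4. Among controls, replicate 1 stood apart for *hsp-4* (138), *col-80* (99.8), *ttr-2* (382), K10C2.3 (62.2) and B0205.14 (1.44), replicate 2 for *hsp-16.2* (89.3), replicate 3 for *gst-14* (19.2) and replicate 4 for *nas-38* (17.6).

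Between the *dpy-27* RNAi and *dpy-21(e428)* comparisons, 7 of the named genes differed by the limma interaction (adjusted p under the threshold). The log2 interactions were 7.23 for C25F9.14, 5.25 for M04C3.1, 7.41 for C25F9.11, -2.36 for *lys-7*, -0.78 for *csq-1*, -3.19 for *dod-21* and -3.19 for C32H11.9.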

How the results depend on the processing

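The X shift stayed between 0.41 and 0.46 whichever library was left out, and was 0.43 with the replicate block (p = 0.125 over pairs) and 0.44 without replicate 1 of either group (exact permutation p = 0.1). Both p are the smallest those designs allow, so they say nothing of stability. Gene calls were far less stable. The count of 4 became 230 with the replicate block, ran from 0 to 5 with single libraries left out and was 1 without replicate 1 of either group. The paired count was 209 to 325 under other pseudocounts, scalings, a mean above 5 FPKM or robust eBayes, 1 with no filter on low values, and 5, 1, 0 and 2 without pairs 1 to 4 (added after the data were seen). With single libraries left out the median of the autosomal molting regulators ran from 0.16 to 0.86, and those of body morphology collagens from 0.23 to 0.86 on autosomes and from -0.05 to 0.89 on the X. Scaling on autosomal genes alone moved the median of all genes by 0.05.

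The interaction with *dpy-21(e428)* called 4 genes at a mean above 5 FPKM and 8 to 29 with a library left out, with 29 when *dpy-27* RNAi replicate 1 was left out. The interaction with mixed embryos called 5 at a pseudocount of 1, 1 at a pseudocount of 0.01 and 0 to 1 with a library left out.

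Among named genes, directions turned only for genes near 0 and for *dpy-27*, which ran from -0.24 to 0.69 with single libraries left out and was -0.13 without replicate 1 of either group. At a mean above 5 FPKM, without scaling and with autosomal scaling, *dpy-26* was 0.010, 0.042 and 0.043 and *csq-1* 0.018, 0.050 and 0.050. Under both scalings *sdc-3* was 0.029. With libraries left out *dpy-26* ran from -0.039 to 0.0057, *sdc-3* from -0.063 to 0.019, *csq-1* from -0.049 to 0.066, *lon-2* from -0.13 to 0.20, *dpy-21* from -0.031 to 0.13, *set-1* from -0.079 to 0.22 and M04C3.1 from -0.018 to 0.27. The value of *lon-2* was -0.10 without *dpy-27* RNAi replicate 3 and -0.13 without replicate 1 of either group. The cause of these changes was not tested.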
